A study of Oryctolagus cuniculus with 8 samples.

Results

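The genes described here are the heat shock and endoplasmic reticulum chaperones that could be recognised on a rabbit expression array. A probe was taken where the array's own description named a heat shock protein, a DnaJ (J-domain) protein, a subunit of the TCP1 chaperonin, a protein disulfide isomerase, calreticulin, calnexin, a peptidylprolyl isomerase, a BCL2-associated athanogene, the homocysteine-inducible protein HERPUD1, X-box binding protein, activating transcription factor 4 or 6, or prefoldin. That choice gave 225 of 43603 probes, and these stood for 85 of the 23360 genes or transcripts with a probe. Of the 85 genes, 64 could be tested, among 11236 genes tested in all. The array names of 5 gene entries are locus numbers, which are called here by the protein that the array describes for them: LOC100354037 as HSPA1A, LOC100354523 as HSPB1, LOC100349535 as DNAJC8, and both LOC100346508 and LOC100338638 as DNAJA1.

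New Zealand rabbits were the source of the forebrain RNA. The pups were taken preterm by Caesarean section on day 29 (term is 32 days) and killed at postnatal day 14. The saline group held 4 pups given the vehicle, and the dexamethasone group held 4 pups given the synthetic glucocorticoid dexamethasone into the muscle (0.25 mg/kg per dose, 2 doses daily over no more than 5 days). All 8 pups were preterm and formula-fed, so that no term-born or mother-fed animal stands beside them. The title of the series asks whether glucocorticoids given after birth affect myelination. The design text calls the samples biological replicates. In whole forebrain, fewer cells of a type and less RNA per cell cannot be told apart.

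Chaperones bind unfolded or partly folded proteins and help them reach or keep their folded form. In the cytosol, HSP70 proteins take up clients brought by J-domain proteins, BAG proteins release them again, and HSP90 completes the folding of a set of clients that includes the glucocorticoid receptor, which must pass through HSP70 and HSP90 before it can bind hormone. In the endoplasmic reticulum, calreticulin and calnexin hold glycoproteins, disulfide isomerases form and rearrange their disulfide bonds, and the unfolded protein response, with XBP1 and ATF6 among its transcription factors, raises chaperone genes when folding falls behind. Cells that make myelin, a membrane rich in proteins and lipids that pass through the endoplasmic reticulum, are known to be sensitive to faults in this system.

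Each of the 4 arrays carried 2 samples of 1 group, with odd sample numbers in Cy3 and even ones in Cy5. Arrays 1 and 2 held saline samples and lay on slide 1, and arrays 3 and 4 held dexamethasone samples and lay on slide 2, so that for every difference below the treatment, the slide and the scan day cannot be told apart. A saline sample had 932 to 3022 outlier spots and a dexamethasone sample 197 to 509, all left out, and 13 of the 64 tested genes lacked a value in 1 sample. From 74.67% to 88% of the chaperone probes were well above background in the saline samples and from 84.44% to 89.78% in the dexamethasone samples. For the 10 probes of the spike-in RNA added at labelling, values were lower on the dexamethasone arrays, with log2 differences from -0.55 to -0.30 (median -0.39), and the part of this in the differences below was not tested. Of 64 marker genes of 9 cell types 31 were tested, of which 0 were called by limma and 6 (19.4%) had an unadjusted p under 0.05, against 13.7% of all genes. The summed levels of all 9 lists, over the genes with a value in every sample, overlapped between the groups. These sums held from 1 to 6 genes a list and mostly follow the brightest gene, so their overlap says little about cell composition. The endothelial sum held 2 genes and left out ABCB1, which had no value for saline 4. The neuronal marker STMN2 was bright in both groups (log2 intensity 16.80 in saline and 16.92 with dexamethasone), while SYT1, also neuronal, was lower without overlap (11.58 to 12.03 in saline, 11.30 to 11.52 with dexamethasone, limma adjusted p = 0.361). The number of arrays limits the precision of every value, and levels of different probes are not compared.

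The array reads each gene through probes of 60 bases, and the sequences below are those of the 5 members with the smallest p-values (DNAJA3, DNAJA4, BAG4, HSPA13 and HERPUD1), of HSPB1, which had the largest difference of all members, and of HSP90AB1, whose probes show how far neighbouring probes can differ. They are written 5′ to 3′. Where a gene has several tested probes, the run of bases that all of them share is in capitals, and the lower-case ends show how far each probe is shifted. Positions are those of the array annotation on the rabbit build oryCun2.
DNAJA3: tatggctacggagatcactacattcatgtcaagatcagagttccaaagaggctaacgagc
DNAJA4: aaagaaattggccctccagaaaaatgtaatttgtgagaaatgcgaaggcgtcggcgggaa
HSPA13: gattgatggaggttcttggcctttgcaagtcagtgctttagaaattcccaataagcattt
HERPUD1: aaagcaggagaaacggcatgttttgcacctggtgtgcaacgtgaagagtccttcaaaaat
HSPB1: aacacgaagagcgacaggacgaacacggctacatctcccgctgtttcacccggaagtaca
BAG4 probe 1: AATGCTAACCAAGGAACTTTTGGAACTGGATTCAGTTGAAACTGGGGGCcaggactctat
BAG4 probe 2: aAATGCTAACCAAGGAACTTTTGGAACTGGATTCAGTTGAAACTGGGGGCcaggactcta
BAG4 probe 3: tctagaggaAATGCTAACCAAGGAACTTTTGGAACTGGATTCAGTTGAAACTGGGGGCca
BAG4 probe 4: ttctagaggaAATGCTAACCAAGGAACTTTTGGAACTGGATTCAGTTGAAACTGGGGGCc
BAG4 probe 5: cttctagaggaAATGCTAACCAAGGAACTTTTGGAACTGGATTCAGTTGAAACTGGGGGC
HSP90AB1 probe 1: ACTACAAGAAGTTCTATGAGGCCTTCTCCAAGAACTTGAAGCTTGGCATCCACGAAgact
HSP90AB1 probe 2: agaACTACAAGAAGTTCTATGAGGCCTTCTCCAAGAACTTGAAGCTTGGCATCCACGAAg
HSP90AB1 probe 3: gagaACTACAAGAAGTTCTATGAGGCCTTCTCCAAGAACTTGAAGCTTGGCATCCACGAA

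The DNAJA3 probe lies on the minus strand at chr12:72920833-72920892, the HSPA13 probe on the minus strand at chr14:142217846-142217905, and the HSPB1 probe on the minus strand at chr6:26753482-26753541. The HERPUD1 probe lies on the plus strand at chr5:13161189-13161334, a stretch of 146 bases, so that its 60 bases match the genome in separate pieces. The HSP90AB1 probe used for the gene, probe 2, spans 167 bases on the plus strand at chr12:33632070-33632236. For DNAJA4 and BAG4 the array annotation used here lists no position. Exon, intron and UTR annotation for this build was not used here. Probes of different chaperone genes had little sequence in common, with a longest shared run of 12 bases over all pairs, and the probes of the DNAJA1 loci shared at most 8. The median GC content was 43.3% both for the chaperone probes and for all probes.

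Dexamethasone was set against saline to ask which chaperone genes differed. With limma, 0 of the 64 tested chaperone genes were called (Benjamini-Hochberg adjusted p under 0.05 over all 11236 genes), against 7 of all genes (0.0623%), 2 higher and 5 lower (6 and 8 with the processed signals, 4 and 3 with quantile normalisation, 4 and 4 without background correction). The smallest adjusted p among the chaperones was 0.242, for DNAJA3. An unadjusted p under 0.05 was reached by 5 of the 64 (7.81%), against 13.7% of all genes, so this share lay below the background. Of those 5, DNAJA3, DNAJA4 and HERPUD1 were higher with dexamethasone, where the background was 6.31%, and BAG4 and HSPA13 were lower, where it was 7.4%. The probes of DNAJA3, DNAJA4, HERPUD1 and HSPA13 were well above background in 3, 2, 3 and 3 saline samples. With only probes well above background in all 8 samples, 0 of 53 chaperones were higher and 1 lower at an unadjusted p under 0.05. Over all 7376 genes tested in that setting, 422 were higher and 691 lower. Groups without overlap were found for 8 of the 64 (12.5%), against 13.3% of all genes. These 8 were the same 5 genes with CCT8, DNAJC18 and CALR3.

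These counts depended on single arrays and on the scaling. Without array 1, which held saline samples 1 and 2, 10 of 59 tested chaperones were called (16.9%), 9 higher and 1 lower with dexamethasone. Over all genes, 2059 of 10091 were called (20.4%), 1032 higher and 1027 lower. The 10 were DNAJA3, DNAJA4, DNAJC6, DNAJA1 (LOC100346508), CCT5, PFDN4, PPIH, CANX and XBP1, all higher, and BAG4, lower. With each sample scaled to its 75th percentile in place of loess, 4 of 64 were called (6.25%), all lower, namely HSPA13, DNAJC18, DNAJC21 and PDIA5, among 2081 of 11236 genes (18.5%), of which 44 were higher and 2037 lower. That scaling moved the median of all genes to -0.24 and the median of the chaperones to 0.35. In both settings the share of chaperones called, higher and lower together, was below that of all genes. Without array 1, however, 9 of the 10 chaperone calls were higher, against 50.1% of the calls over all genes. The share of chaperones called higher in that setting (9 of 59) thus lay above that of all genes (1032 of 10091).

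The log2 differences of the 64 chaperones ran from -0.41 for CCT6A to 0.61 for HSPB1, with 38 above 0 and 26 below. Their median was 0.07, beside 0.02 over all genes tested, and the median size of a difference without its sign was 0.14, beside 0.15 over all genes. The median SE of a chaperone's difference was 0.13, so that most differences were about the size of their own error. The share above 0 was 59.4% for the chaperones and 54.3% for all genes.

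**Figure D1:**
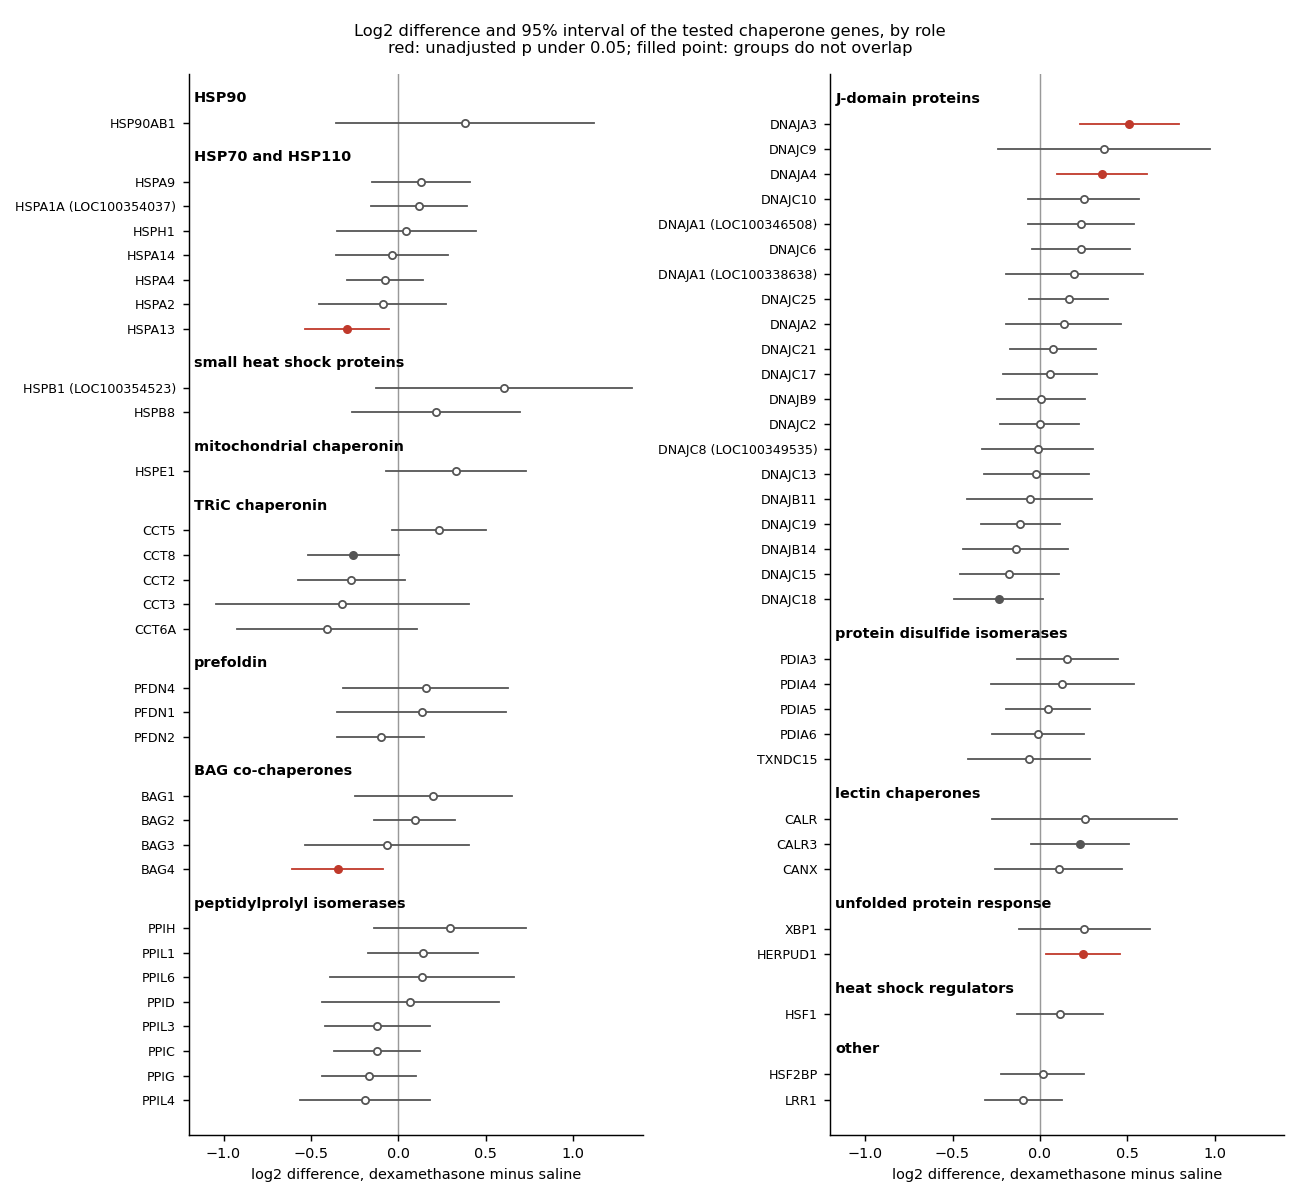
Log2 difference between dexamethasone and saline (horizontal axis) for each of the 64 tested chaperone genes, grouped by role, with its 95% interval from limma (4 saline and 4 dexamethasone samples). Red marks the 5 genes with an unadjusted p under 0.05 and filled points the 8 genes whose groups do not overlap, and the intervals of all other genes include 0.

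The HSP70 and HSP110 family, the ATP-driven chaperones that hold unfolded stretches of protein, had 7 of 8 genes tested, 3 above 0 and 4 below, with a median of -0.04. HSPA13, a microsomal HSP70 relative that lacks the usual substrate-binding part, had the largest difference of the family. Its log2 intensity was 9.18, 9.13, 9.03 and 9.07 in saline samples 1 to 4, and 8.83, 8.69, 8.76 and 8.96 in dexamethasone samples 1 to 4. Every dexamethasone sample lay below every saline sample, but the closest values, 9.03 and 8.96, were near each other. The means were 9.10 ± 0.07 (SD, n = 4) and 8.81 ± 0.12 (SD, n = 4), a log2 difference of -0.29 (SE 0.11, 95% interval -0.54 to -0.05, limma adjusted p = 0.345). It was similar within Cy3 (-0.31) and within Cy5 (-0.28), and the probe was well above background in 3 saline and 4 dexamethasone samples.

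HSPA1A, the classic stress-inducible HSP70, showed no such separation. The log2 intensity was 10.84, 10.81, 10.92 and 10.51 in saline and 11.04, 10.94, 10.81 and 10.76 with dexamethasone, and the groups overlapped. Its log2 difference was 0.12 (SE 0.12, 95% interval -0.16 to 0.39, limma adjusted p = 0.645), and with the processed signals it was -0.01. The mitochondrial HSP70 HSPA9 differed by 0.13 (SE 0.12), without a value for dexamethasone 2, while its second probe gave 0.33 (SE 0.11, limma adjusted p = 0.354). HSPA4 and HSPH1, of the HSP110 type that exchanges nucleotide on HSP70, differed by -0.08 (SE 0.09) and 0.05 (SE 0.17), and HSPA2 and HSPA14 by -0.09 (SE 0.16) and -0.04 (SE 0.14). The 95% intervals of these genes, through the probes that stand for them, all included 0.

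HSP90 was represented by HSP90AB1, the constitutive cytosolic form that matures steroid receptors among other clients. Its log2 intensity was 11.43, 11.11 and 11.70 in saline samples 1, 3 and 4, with no value for saline 2, and 12.26, 11.34, 12.03 and 11.28 with dexamethasone. The dexamethasone samples fell into a high pair, both labelled with Cy3, and a low pair, both labelled with Cy5, and the low pair lay within the saline values. The log2 difference was 0.38 (SE 0.31, 95% interval -0.36 to 1.12, limma adjusted p = 0.577). The 3 HSP90AB1 probes printed above share a run of 56 of their 60 bases, and probe 1 and probe 3 gave -0.02 (SE 0.23) and -0.02 (SE 0.22), so the difference of 0.38 rests on a single probe.

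Among the small heat shock proteins, which hold damaged proteins without using ATP, 2 of 6 genes were tested and both had differences above 0, though HSPB8 turned to -0.27 with scaling to the 75th percentile. HSPB1 (also called HSP27) had the largest difference of all 64 chaperones. The log2 intensity was 11.46, 11.59, 11.92 and 11.48 in saline and 12.45, 11.72, 11.84 and 12.87 with dexamethasone. Dexamethasone samples 1 and 4 lay above all saline samples, while dexamethasone samples 2 and 3 lay within the saline values. The means were 11.61 ± 0.22 (SD, n = 4) and 12.22 ± 0.54 (SD, n = 4), a 1.52-fold difference (log2 0.61, SE 0.32, 95% interval -0.13 to 1.34, limma adjusted p = 0.411). The same samples, dexamethasone 1 and 4, stood high for TTR and FOLR1, markers of the choroid plexus, the tissue that secretes cerebrospinal fluid. TTR was at 18.27, 15.48, 13.94 and 18.19 in dexamethasone samples 1 to 4, with saline between 15.50 and 17.14, and FOLR1 was at 10.66, 9.04, 8.86 and 11.11, with saline between 8.84 and 9.65. The summed intensity of the 4 tested choroid plexus and ependyma markers of 7 lay between 51340 and 151300 for saline, a range inside that of dexamethasone (20530 to 320700). Of these 4 markers, DNAI1 was also highest in dexamethasone 1 and 4, while KL was lowest in dexamethasone 1. KL was at 11.49, 11.76, 11.86 and 11.82 in dexamethasone samples 1 to 4, with saline between 11.96 and 12.51. The neuronal NEFL and the meningeal LUM were also highest in dexamethasone 1 and 4, but their lists were not uniform. Among the dexamethasone samples, the meningeal PTGDS, SLC6A13, DCN, COL1A1 and COL1A2 were highest in sample 3, and COL3A1 in samples 1 and 4. COL1A2 had no value for dexamethasone 1. The neuronal STMN2 was highest in dexamethasone 1 and 4, within a range of 16.57 to 16.99 over all samples, while SYT1 was lowest in dexamethasone 1 (11.30). The part of these markers in the HSPB1 values was not tested. HSPB8, a partner of BAG3 in the removal of misfolded proteins, differed by 0.22 (SE 0.21). The probes of HSPB2, HSPB6, HSPB7 and HSPB9 were well above background in at most 1 of 8 samples.

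HSPE1, the lid of the mitochondrial chaperonin, was the only gene of that class. Its log2 intensity was 14.46, 14.34 and 13.91 in saline samples 1, 2 and 4, with no value for saline 3, and 14.48, 14.62, 14.42 and 14.65 with dexamethasone. Saline 4 stood low and the other samples lay close together, so the groups overlapped. The log2 difference was 0.33 (SE 0.17, 95% interval -0.07 to 0.73, limma adjusted p = 0.408), while its 3 tested probes gave 0.33, 0.09 and 0.00.

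The TRiC chaperonin, a ring of CCT subunits that folds actin and tubulin, had 5 of 7 genes tested. CCT2, CCT3, CCT6A and CCT8 had differences below 0 and CCT5 one above 0, and with scaling to the 75th percentile the signs of CCT2, CCT3, CCT5 and CCT8 turned. CCT8 had a log2 intensity of 13.31, 13.24 and 13.42 in saline samples 2, 3 and 4, with no value for saline 1, and of 13.08, 13.06, 13.12 and 12.99 with dexamethasone. All dexamethasone values lay below all saline values, with 13.24 and 13.12 the nearest. The log2 difference was -0.26 (SE 0.11, 95% interval -0.52 to 0.00, limma adjusted p = 0.362). Its sign did not hold when outlier spots were kept (0.35) or when the kept probes were averaged (0.11), settings in which a further probe or the missing saline sample enters.

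CCT2 had a log2 intensity of 12.81, 12.94, 12.84 and 13.12 in saline and of 12.90, 12.59, 12.55 and 12.60 with dexamethasone, and dexamethasone 1 lay among the saline values. Its difference was -0.27 (SE 0.13, limma adjusted p = 0.393), and its 3 tested probes lay between -0.36 and -0.27. CCT6A differed by -0.41 (SE 0.22) through one probe and by -0.03 through the other. CCT5 differed by 0.24 (SE 0.12, limma adjusted p = 0.392). For CCT3 the probe that stood for the gene gave -0.32 (SE 0.31, without a value for dexamethasone 4), with dexamethasone 3 at 12.99 and the other samples between 13.91 and 14.20, while its 5 other tested probes all lay above 0, up to 0.41. Subunits of one ring thus did not share a sign, and CCT3 had no settled sign of its own.

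Prefoldin, which passes unfolded actin and tubulin to TRiC, had 3 of 3 genes tested, and none of their groups separated. PFDN4 differed by 0.16 (SE 0.21), PFDN1 by 0.14 (SE 0.21, without a value for saline 4; the sign turned in 10 of 29 alternatives, among them -0.17 with the processed signals) and PFDN2 by -0.10 (SE 0.11). The 4 probes of PFDN2 all lay below 0, between -0.21 and -0.04, and those of PFDN1 ran from -0.17 to 0.40. For PFDN4, 3 of 4 tested probes lay below 0, and they ran from -0.26 to 0.16, the value of the probe that stood for the gene. The wide errors of PFDN1 and PFDN4 came with a low saline 3, at 10.04 and 11.98.

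The J-domain proteins, which choose clients for HSP70 and set off its ATPase, were the largest class, with 20 of 28 genes tested, 12 above 0 and 8 below, and a median of 0.07. DNAJA3 is a mitochondrial J-domain protein. The log2 intensity was 8.80, 8.94, 8.59 and 8.58 in saline and 9.23, 9.11, 9.39 and 9.23 with dexamethasone. All dexamethasone values lay above all saline values, and the nearest were 8.94 in saline 2 and 9.11 in dexamethasone 2. The means were 8.73 ± 0.17 (SD, n = 4) and 9.24 ± 0.12 (SD, n = 4), a 1.43-fold difference (log2 0.51, SE 0.12, 95% interval 0.23 to 0.79, limma adjusted p = 0.242). Within Cy3 the difference was 0.61 and within Cy5 0.41. With scaling to the 75th percentile, which moves the median of all genes to -0.24, it was -0.12. The DNAJA3 probe was well above background in 3 saline and 4 dexamethasone samples.

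DNAJA4, a cytosolic relative of DNAJA1, had a log2 intensity of 8.39, 8.48, 8.15 and 8.21 in saline and of 8.69, 8.56, 8.74 and 8.67 with dexamethasone. The groups did not overlap, with 8.48 and 8.56 as the nearest values. The difference was 0.36 (SE 0.11, 95% interval 0.10 to 0.61, limma adjusted p = 0.311), with 0.44 within Cy3 and 0.27 within Cy5, and it was -0.75 with scaling to the 75th percentile. The probe was well above background in 2 saline and 4 dexamethasone samples, so it lay near the limit of measurement in saline. DNAJA3 and DNAJA4 are each read through a single probe, so no other probe of theirs bears on the difference.

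DNAJA1, the main cytosolic partner of HSP70, was read at a pair of neighbouring loci on chromosome 1, with tested probes at chr1:20384326-20384385 and chr1:20391899-20391958. The locus LOC100346508 had a log2 intensity of 13.40, 13.40, 13.00 and 13.12 in saline and of 13.64, 13.41, 13.43 and 13.39 with dexamethasone. The other locus, LOC100338638, had 12.15, 12.15 and 12.05 in saline samples 1, 2 and 4, no value for saline 3, and 12.72, 12.33, 12.12 and 12.16 with dexamethasone. At both loci dexamethasone 1 was the highest sample and the groups overlapped. The differences were 0.24 (SE 0.13, limma adjusted p = 0.427) and 0.20 (SE 0.17, limma adjusted p = 0.582). DNAJA2, the third protein of this type, differed by 0.14 (SE 0.14).

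DNAJC18, a membrane-bound J-domain protein of the endoplasmic reticulum, was lower in every dexamethasone sample than in every saline sample. Its log2 intensity was 8.50, 8.40, 8.59 and 8.58 in saline and 8.31, 8.39, 8.08 and 8.35 with dexamethasone, so the nearest values, 8.40 and 8.39, almost met. The difference was -0.24 (SE 0.11, limma adjusted p = 0.374), it was 0.09 with the processed signals, and its 3 probes ran from -0.24 to 0.04. DNAJC6 (auxilin), which with HSP70 strips clathrin from vesicles in neurons, differed by 0.24 (SE 0.12, limma adjusted p = 0.402), with its 4 probes between -0.06 and 0.24.

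The J-domain proteins of the endoplasmic reticulum lumen had differences on both sides of 0. DNAJC10, a reductase that opens wrong disulfide bonds, differed by 0.25 (SE 0.14), and DNAJB11, a partner of the HSP70 of the endoplasmic reticulum, by -0.06 (SE 0.16). DNAJB9, which holds the stress sensor IRE1 in check and is a known target of XBP1, differed by 0.01 (SE 0.11, without a value for saline 2) through its brightest probe. Its 6 other tested probes ran from -0.09 to 0.38, and 2 of them, at 0.38 (SE 0.11) and 0.37 (SE 0.10), passed an unadjusted p under 0.05, as did 15 of the 162 tested chaperone probes (9.26%) against 12.7% of all 20707 probes tested. At an adjusted p under 0.05, 0 of the 162 probes were called, against 0.0338% of all probes. The groups did not overlap for 16 of the 162 (9.88%) against 12.4%.

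**Figure D2:**
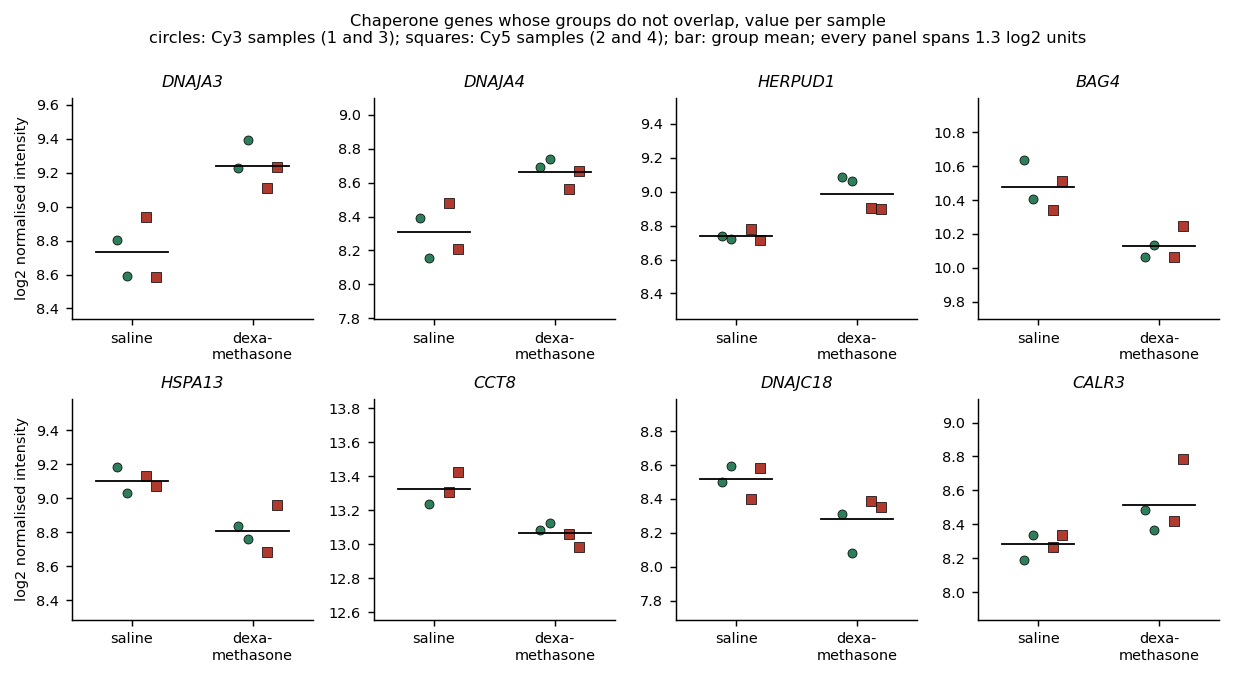
Log2 normalised intensity (vertical axis) in each sample for the 8 chaperone genes whose groups do not overlap, with circles for Cy3 samples, squares for Cy5 samples and a bar at each group mean. DNAJA3 has the widest space between the groups, from 8.94 to 9.11, while DNAJC18 (8.40 and 8.39) and CALR3 (8.34 and 8.37) nearly touch, and CCT8 has no value for saline 1.

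The BAG co-chaperones, which release clients from HSP70, had 4 of 4 genes tested, with BAG1 and BAG2 above 0 and BAG3 and BAG4 below, though BAG3 turned to 0.28 with scaling to the 75th percentile and to 0.16 in the deposited series table. BAG4, which also binds the death domain of tumour necrosis factor receptors, had a log2 intensity of 10.64, 10.34, 10.41 and 10.51 in saline and of 10.06, 10.06, 10.14 and 10.25 with dexamethasone. All dexamethasone values lay below all saline values. The means were 10.47 ± 0.13 (SD, n = 4) and 10.13 ± 0.09 (SD, n = 4), a log2 difference of -0.35 (SE 0.11, 95% interval -0.61 to -0.08, limma adjusted p = 0.320), with -0.42 within Cy3 and -0.27 within Cy5.

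The 5 BAG4 probes printed above share a run of 49 bases and differ only in how far each is shifted. In the order printed, from the probe that ends furthest towards the 3′ end, their differences were -0.54 (SE 0.15), -0.35 (SE 0.11), -0.18 (SE 0.13), -0.12 (SE 0.10) and 0.00 (SE 0.11). The differences were thus smaller from each probe to the next, over a shift of 11 bases between the outer probes, an order that was noticed after the values were seen. Probe 2 stood for the gene because it was the brightest. The mean over the probes was smaller than the value of probe 2, at -0.24.

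BAG3, which is induced by stress and steers clients to autophagy, had a log2 intensity of 9.98, 10.26, 10.50 and 10.86 in saline and of 10.29, 10.19, 10.10 and 10.75 with dexamethasone. Sample 4 was the highest of each group, and the groups overlapped over most of their range. The difference was -0.06 (SE 0.20, limma adjusted p = 0.894), and all 6 of its probes lay at or below 0, between -0.27 and 0.00. BAG1, which can bind the glucocorticoid receptor, differed by 0.20 (SE 0.19) without a value for saline 2. BAG2 differed by 0.09 (SE 0.10) through the probe that stood for it, and its 5 probes ran from 0.03 to 0.63. The dimmer BAG2 probes at 0.63 (SE 0.18) and 0.27 (SE 0.11) had groups without overlap. They were among the 15 of 162 chaperone probes with an unadjusted p under 0.05. Both were well above background in only 2 saline samples, against 4 dexamethasone samples.

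The peptidylprolyl isomerases of the cyclophilin family, which turn proline bonds, had 8 of 9 genes tested, 4 above 0 and 4 below, with a median of -0.02 and no group separation. PPIH, a cyclophilin of the spliceosome, had the smallest p of the class. The log2 intensity was 11.97, 11.57, 11.14 and 11.22 in saline and 11.77, 11.75, 11.71 and 11.84 with dexamethasone, so the saline samples were spread on both sides of a narrow dexamethasone group. The difference was 0.30 (SE 0.19, limma adjusted p = 0.474). PPIG, a nuclear cyclophilin, differed by -0.17 (SE 0.12), though 3 of its 5 tested probes lay above 0 and they ran from -0.18 to 0.14. PPID (cyclophilin 40), a co-chaperone of HSP90 in steroid receptor complexes, differed by 0.07 (SE 0.22, without a value for saline 3). PPIL4, which is named here because its probes shared a sign, was noticed after the values were seen, and its 3 probes gave -0.19, -0.44 and -0.54.

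The protein disulfide isomerases of the endoplasmic reticulum had 5 of 5 genes tested, and all 5 overlapped between the groups. PDIA3 (ERp57), which works with calreticulin and calnexin on glycoproteins, had a log2 intensity of 11.23, 11.15 and 11.44 in saline samples 1 to 3, with no value for saline 4, and of 11.57, 11.29, 11.36 and 11.44 with dexamethasone. Its difference was 0.16 (SE 0.12, 95% interval -0.13 to 0.44, limma adjusted p = 0.559). PDIA4 (ERp72) had 10.28, 10.83, 10.42 and 10.15 in saline and 10.60, 10.46, 10.62 and 10.50 with dexamethasone, a difference of 0.13 (SE 0.18), and all 7 of its probes lay above 0, between 0.02 and 0.20. PDIA6 differed by -0.01 (SE 0.12). For PDIA6 the 95% interval of -0.27 to 0.25 leaves room for a difference of about that size in either direction.

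The lectin chaperones had 3 of 3 genes tested and differences above 0 for all of them, with a median of 0.23, though CALR3 turned to -0.92 with scaling to the 75th percentile. CALR, the calcium-binding lectin of the endoplasmic reticulum lumen, had a log2 intensity of 15.60, 15.93 and 15.07 in saline samples 1, 2 and 4, with no value for saline 3, and of 15.71, 15.73, 15.56 and 15.93 with dexamethasone. Saline 4 was low and the other samples were alike, and the difference was 0.26 (SE 0.23, 95% interval -0.27 to 0.78, limma adjusted p = 0.599). CANX, its membrane-bound partner, had 10.01, 9.81, 9.46 and 9.41 in saline and 9.95, 9.51, 9.94 and 9.71 with dexamethasone. The CANX groups covered nearly the same range, with a difference of 0.11 (SE 0.16, limma adjusted p = 0.761).

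CALR3, a relative of calreticulin known mainly from testis, was dim. Its log2 intensity was 8.19, 8.27, 8.34 and 8.34 in saline and 8.48, 8.42, 8.37 and 8.78 with dexamethasone, and its probe was well above background in 1 saline and 3 dexamethasone samples. The groups did not overlap, but 8.34 and 8.37 are near each other and dexamethasone 4 stood apart from the rest. The difference was 0.23 (SE 0.12, limma adjusted p = 0.412).

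The unfolded protein response was read through HERPUD1 and XBP1, both above 0, though HERPUD1 turned to -0.44 with scaling to the 75th percentile. HERPUD1, a membrane protein that helps degrade misfolded proteins and is induced by stress of the endoplasmic reticulum, had a log2 intensity of 8.74, 8.78, 8.72 and 8.72 in saline and of 9.09, 8.90, 9.06 and 8.90 with dexamethasone. The saline samples were nearly equal and all dexamethasone samples lay above them. The means were 8.74 ± 0.03 (SD, n = 4) and 8.99 ± 0.10 (SD, n = 4), a 1.19-fold difference (log2 0.25, SE 0.09, 95% interval 0.04 to 0.46, limma adjusted p = 0.347). It was 0.35 within Cy3 and 0.15 within Cy5, and the single probe was well above background in 3 saline and 4 dexamethasone samples.

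XBP1, a transcription factor of the response, had a log2 intensity of 10.52, 10.60, 10.18 and 10.10 in saline and of 10.92, 10.46, 10.54 and 10.50 with dexamethasone. Dexamethasone 1 was the highest sample, and the other dexamethasone samples lay among the upper saline values. The difference was 0.25 (SE 0.16, 95% interval -0.12 to 0.63, limma adjusted p = 0.478), and 4 of its 5 probes, which overlap, lay between 0.21 and 0.29 while the fifth gave -0.03. Levels of the spliced and the unspliced XBP1 transcript were not measured apart. The probe of ATF6, the second transcription factor of the response in this set, was well above background in 2 of 8 samples.

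HSF1, the transcription factor that switches on heat shock genes, differed by 0.11 (SE 0.11, limma adjusted p = 0.621), with 10.32, 10.00, 10.17 and 10.12 in saline and 10.25, 10.19, 10.50 and 10.12 with dexamethasone, groups that overlapped. HSF4 and HSF5 were well above background in 0 of 8 samples. HSF2BP, a protein that binds HSF2, differed by 0.02 (SE 0.10), and LRR1, which the array describes as an isomerase-like gene, by -0.10 (SE 0.10). Of the 21 genes that could not be tested, AHSA1, CCT7, DNAJC7 and PPIA were well above background in all 8 samples and were left out for outlier spots, and the other 17 were well above background in at most 3 of 8. Of the 42 genes fixed by name, the descriptions selected a probe for 27. Among those without one were HSPA5, HSP90B1, HSPA8, HSP90AA1, P4HB and PPIB, so the most abundant chaperones of the endoplasmic reticulum and the cytosol are only in part represented. The mitochondrial HSPD1 and the transcription factor ATF4 were also without one.

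Several probes of one gene gave a further measure of error. Of the 37 tested genes with 2 or more tested probes, 9 had all probes above 0, 6 had all below, and 22 had probes on both sides. Among 63 pairs of probes of one gene that share at least 50 bases, the differences of the pair lay apart by a median of 0.13 and at most by 0.72, and 16 of the pairs had opposite signs. Among 94 pairs that share fewer than 15 bases, the median was 0.14 and the most 0.63, with 25 pairs of opposite signs. Between these, the 35 pairs that share 30 to 49 bases had a median of 0.22 with 18 of opposite signs, and the 24 pairs that share 15 to 29 had 0.21 with 12. The space between a pair thus did not simply follow the bases shared, and all 4 medians were near or above the median size of a chaperone's own difference, 0.14. Pairs of one gene share their samples and are not independent.

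**Figure D3:**
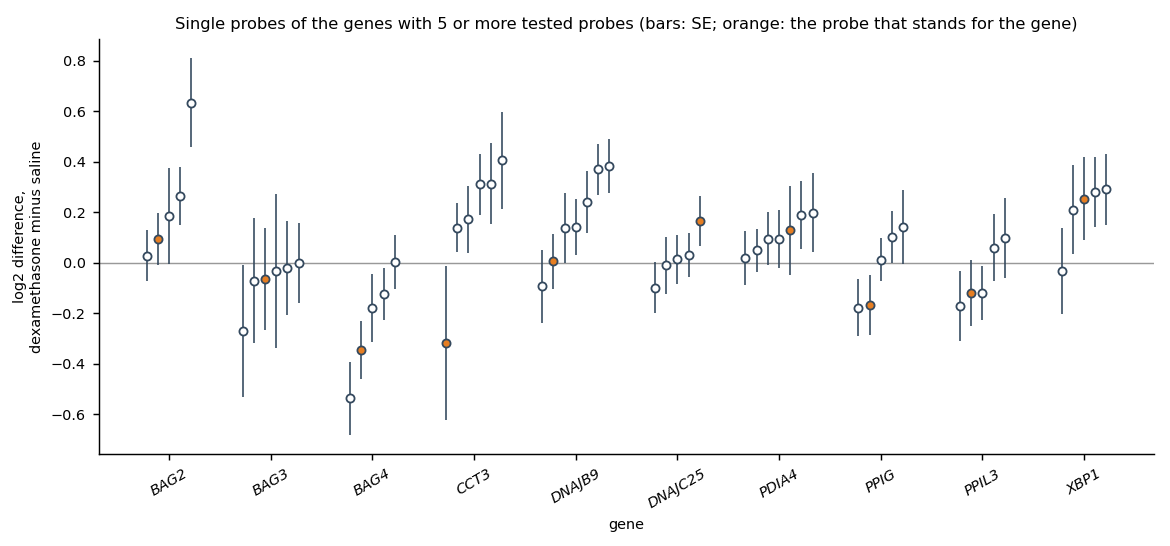
Log2 difference between dexamethasone and saline (vertical axis, bars: SE, 4 samples a group) for every tested probe of the genes with 5 or more tested probes, ordered by value within each gene (horizontal axis), with the probe that stands for the gene in orange. The BAG4 probes run from -0.54 to 0.00, and for CCT3 the probe that stands for the gene lies at -0.32 while the other 5 lie above 0.

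The samples were also compared by the median deviation of the 64 chaperones from their gene means. It was 0.00, 0.03, -0.05 and -0.03 in saline samples 1 to 4 and 0.06, 0.01, -0.01 and 0.04 in dexamethasone samples 1 to 4. Saline samples 3 and 4, which share array 2, were the lowest, and saline samples 1 and 2 lay within the dexamethasone values. Over all genes the same medians ran from -0.03 to 0.01. Without array 2 the median difference of the chaperones was 0.03, and without array 1 it was 0.07. Without array 3 it was 0.022, below the median of all genes (0.028), so that the order of these medians turned.

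**Figure D4:**
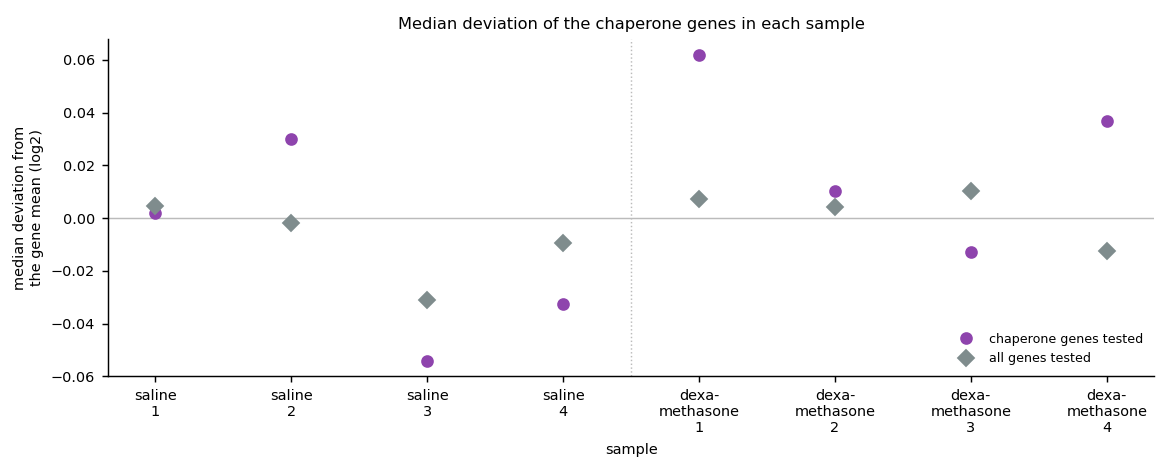
Median deviation from the gene mean in log2 units (vertical axis) over the tested chaperone genes (circles) and over all genes tested (diamonds) in each of the 8 samples (horizontal axis). The chaperone medians run from -0.05 in saline 3 to 0.06 in dexamethasone 1, and the groups overlap.

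Other genes of the same pathways, outside the description rule, were taken from lists. The first list held 27 co-chaperones and other folding proteins, mostly cytosolic. Its tested genes included the mitochondrial CLPX and GRPEL2 and the small heat shock proteins CRYAA and CRYAB. Of the 27, 14 were tested, 0 were called by limma, and 2 (14.3%) had an unadjusted p under 0.05, against 13.7% of all genes. Of the 14, 13 (92.9%) lay above 0, against 54.3% of all genes, with a median of 0.12, and 10 did with scaling to the 75th percentile. Their summed intensity, over the 13 with a value in every sample, did not overlap between the groups, at 11900 to 12730 in saline and 13270 to 14820 with dexamethasone. How often sums over other genes stay apart in this way was not tested. Gene by gene, the groups did not overlap for 2 of the 14 (14.3%), near the 13.3% of all genes. CHORDC1, an HSP90 co-chaperone induced by heat shock, differed by 0.49 (SE 0.18, limma adjusted p = 0.345), and TTC1 by 0.39 (SE 0.12, limma adjusted p = 0.311), and both groups of values were apart. FKBP4, an immunophilin of the glucocorticoid receptor complex, differed by 0.14 (SE 0.12), and FKBP5, a textbook target of glucocorticoids, could not be tested, as only 1 of 8 samples was well above background. Of 63 genes of folding, stress and degradation in the endoplasmic reticulum 24 were tested, 0 were called by limma, and 4 (16.7%) had an unadjusted p under 0.05. The groups did not overlap for 5 of the 24 (20.8%), against 13.3% of all genes. Of the 24, 17 (70.8%) lay above 0 and 7 below, with a median of 0.08, and 12 lay above 0 when the kept probes were averaged. Their summed intensity, over the 22 with a value in every sample, overlapped, at 45400 to 49220 in saline and 47830 to 50650 with dexamethasone. Those with the smallest p were ERLEC1 (0.40, SE 0.11, limma adjusted p = 0.286), a lectin of the degradation machinery, and ERP44 (0.35, SE 0.12, limma adjusted p = 0.345), which retains clients with unfinished disulfide bonds. The stress sensor ERN1, the kinase and nuclease that splices XBP1, differed by -0.29 (SE 0.12, limma adjusted p = 0.356), and EIF2S1 by -0.39 (SE 0.16, limma adjusted p = 0.358). EIF2AK3, another stress sensor, had the largest difference of the list, 0.98 (SE 0.47, limma adjusted p = 0.374). Its values were 10.54, 9.78, 8.52 and 8.26 in dexamethasone samples 1 to 4, with saline between 8.25 and 8.36, and the groups overlapped. The high samples, dexamethasone 1 and 2, share array 3, so the difference of EIF2AK3 rests mainly on 1 array. Its probe was well above background in 2 saline and 4 dexamethasone samples, so it lay near the limit of measurement in saline. No gene of either list passed the test in the main fit, as with the chaperones. Without array 1, where 20.4% of all genes were called, 4 of the 14 and 5 of the 24 were. With scaling to the 75th percentile, where 18.5% of all genes were called, 0 of the 14 and 2 of the 24 were.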

How the data were processed

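Spot intensities (mean, median and local background of each dye) were deposited as scanner files made with Agilent Feature Extraction, version 11.0.1.1 per the file headers and 10.7.3.1 per the submitters' processing notes. Each file was deposited for both samples of its array, and each sample was read from its own dye, per the labels. A series table of signal values, also deposited by the authors, was used only as an alternative. Build oryCun2 is named per the file headers. Gene symbols, found for 22531 of 43603 probes, came from the array annotation matched to RefSeq's gene table for mOryCun1.1, and spots of a probe were averaged.

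Each channel's log2 values were taken after normexp correction (offset 50), loess within and Aquantile between arrays, without outlier spots. Probes were kept with 4 or more of 8 samples well above background, and the brightest with at least 3 values in each group stood for a gene. That order was set after a first fit had shown genes lost to missing values, and the other order was run beside it. Groups were compared by a linear model in limma 3.58.1 (R 4.3.3) with a dye term, array as a random block (correlation 0.239), moderated variances and Benjamini-Hochberg adjustment over 11236 genes, a fit checked on simulated data. No list was tested as a set. The closing section gives the effect of other background corrections, scalings, filters and model terms, and of leaving out samples or arrays.

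The members, role classes and lists were chosen with earlier results of these data known. Genes are named where they had the 12 smallest p-values, the 2 smallest p-values or the highest level of a role class, or were fixed by name. Members named outside that rule are given for their probes, levels or calls. Promoter and protein sequences were not used here.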

Additional observations from a re-analysis of the deposited data

Results flagged for a closer look

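Among the 41 named genes, 70 groups of 4 samples with all values were examined for a single sample far from the other 3, and 5 held one, where chance gives about 1 in 20. Dexamethasone 1 was the high sample in 4 of them. For CCT2 it was at a log2 intensity of 12.90, with the other dexamethasone samples from 12.55 to 12.60. For DNAJA1 (LOC100346508) it was at 13.64, with the others from 13.39 to 13.43. For XBP1 it was at 10.92, with the others from 10.46 to 10.54. For PDIA6 it was at 10.39, with the others from 10.25 to 10.25. Saline 4 was low for HSPA2, at 10.90, with the other saline samples from 11.28 to 11.35.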

How the results depend on the processing

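The main limits are that 4 arrays held all samples, that each slide held 1 group, that 34 of the 85 genes had a single probe, and that 13 of the 64 tested genes lacked a value in 1 sample. Differences were counted as called at an adjusted p under 0.05 (limma), and 29 alternatives were run. Of all 11236 genes, 7 were called (2 higher, 5 lower), against 14 with the processed signals (6 higher, 8 lower), 2081 with scaling to the 75th percentile, 3 with probes well above background in all 8 samples, 2 with no filter on dim probes, 22 without the array block, 15 without the dye term and 21 at an adjusted p under 0.10. The count was 2059 without array 1, 180 without array 2, 0 without array 3 (534 past an unadjusted p of 0.05) and 0 without array 4 (654), and 0 to 7 with each sample left out. Every left-out dexamethasone sample gave 0, with 643, 1162, 959 and 1067 genes past an unadjusted p of 0.05 for samples 1 to 4. The count of called chaperones was 0 in all of these settings but the 75th percentile (4) and the fit without array 1 (10). The median over the chaperones was 0.35 with scaling to the 75th percentile, 0.27 in the deposited series table (0.13 over all genes), 0.026 without array 2 and 0.022 without array 3, and it stayed above 0 in all 29. The cause of these changes was not tested.

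Deviations of same-numbered samples from their group means had correlations of -0.112, -0.135, -0.0149 and 0.1 for numbers 1 to 4. After the dye means the correlations were -0.066 and 0.0047. Each of these values holds for 2 numbers, because a group has only 2 samples per dye. The check thus showed no pairing by number but cannot exclude one, and the main fit used none. With the replicate number as a block the count over all genes was 1, and that of the chaperones stayed at 0.

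The named chaperones gave 1136 values under the alternatives, of which 1037 kept the sign of the main value and 99 did not, and 12 passed an adjusted p of 0.05. With the processed signals, DNAJC18 was 0.090, HSPA1A -0.011, PFDN1 -0.17, HSPH1 -0.027 and PDIA6 0.068. Without background correction, PFDN1 was -0.19. With quantile normalisation, PFDN1 was -0.17, HSF2BP -0.00031 and DNAJB9 -0.0024. With scaling to the 75th percentile, DNAJA3 was -0.12, DNAJA4 -0.75, HERPUD1 -0.44, CCT8 0.51, CCT5 -0.13, CCT2 0.38, CALR3 -0.92, HSPB8 -0.27, CCT3 0.22, PFDN2 0.54, HSPA4 0.56, HSPA2 0.42, BAG3 0.28, HSF2BP -0.92 and PDIA6 0.22. With the mean of kept probes, CCT8 was 0.11, BAG1 -0.013, CCT3 0.40 and LRR1 0.059. Over genes with all 8 values, HSP90AB1 was -0.018 and CCT3 0.14. With outlier spots kept, CCT8 was 0.35, CCT3 0.23 and PFDN1 -0.21. In the deposited series table, CCT8 was 0.010, PPIG 0.00061, PFDN2 0.057, HSPA4 0.13, HSPA2 0.13, BAG3 0.16 and PDIA6 0.20. Without array 1, HSPE1 was -0.099, DNAJA1 (LOC100338638) -0.35, CCT3 0.11, PFDN1 -0.12 and PDIA6 0.11. Without array 2, CCT8 was 0.32, PDIA3 -0.10, HSP90AB1 -0.012, CALR -0.033, PFDN4 -0.21, PDIA4 -0.0062, CANX -0.13, PFDN1 -0.070, PPID -0.20, BAG3 0.22, HSF2BP -0.059 and DNAJB9 -0.011. Without array 3, HSP90AB1 was -0.11, CCT3 0.052, PFDN1 -0.11, PPID -0.013, BAG3 0.028, HSPH1 -0.013 and HSF2BP -0.0025. Without array 4, HSPB8 was -0.035, CCT3 0.11, PFDN1 -0.20, PDIA6 0.024 and DNAJB9 -0.036. With each sample left out in turn, HSPE1 ran from -0.015 to 0.39, HSP90AB1 from -0.18 to 0.51, CCT3 from -0.34 to 0.17, PFDN4 from -0.031 to 0.30, CANX from -0.033 to 0.20, PFDN1 from -0.18 to 0.25, HSPA2 from -0.20 to 0.030, BAG3 from -0.17 to 0.064, HSPH1 from -0.066 to 0.13, HSF2BP from -0.032 to 0.063, PDIA6 from -0.077 to 0.073, DNAJB9 from -0.027 to 0.33 and PPID from -0.057 to 0.15.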
